A study of Mus musculus with 22 samples.

Results

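Nonlesional skin was set against whole blood of the same 4 wild-type mice, which are 8 of the 22 RNA sequencing libraries of a study of a K5-VGLL3 transgenic mouse. The libraries were chosen by their labels alone: the strain WT, the source skin or blood, and the animal tags M1 to M4, so each animal gave 1 library of each tissue. M1 and M2 were male and M3 and M4 female. The mice carried no transgene and received no treatment, and the labels state neither their age nor their background strain, only that wild-type and transgenic animals were matched for age and sex. All 24401 genes of the tissue table were considered, and 15094 had enough counts in the 8 libraries to be tested. Skin and blood of 4 transgenic animals, tagged V1 to V4 and again 2 males and 2 females, serve here only to ask whether the tissue difference was the same in them. Their transgene is labelled K5-VGLL3. K5 names keratin 5, a keratin of the basal epidermis, and VGLL3 is a cofactor that binds TEAD transcription factors.

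The RNA of whole blood was isolated with a RiboPure-Blood kit and that of skin with the TriPure reagent. The kit changes with the tissue in all animals, so tissue and kit cannot be told apart in any difference below. Both tissues are also mixtures: in bulk RNA, more cells of a type and more RNA per cell cannot be told apart. The labels name no batch. The p-values rest on the spread between these 4 animals, with the variance of each gene drawn by the test toward that of other genes.

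Skin is built from an epidermis whose basal layer, marked by keratins 5 and 14, divides and whose upper layers, marked by keratins 1 and 10, cornify into the barrier. Beneath and within it lie hair follicles that cycle between growth and rest, sebaceous glands, pigment cells, a collagen-rich dermis, fat and a thin sheet of striated muscle, the panniculus carnosus. Blood RNA comes mostly from cells that have no nucleus: young red cells (reticulocytes) and platelets still carry mRNA made by their precursors in the marrow, and nucleated leukocytes add a smaller share. Young red cells spend this RNA almost wholly on haemoglobin while they clear their organelles.

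The promoters of 5 genes with large differences between the tissues are shown, from the red cell, the hair follicle and the pigment cell. They are stretches of 150 bases, or 89 for Hba-a1, upstream of the start site in RefSeq's annotation of GRCm38.p6, printed 5′ to 3′ on the strand of the gene. The first pair comes from the red cell, an alpha globin and the erythroid enzyme of haem synthesis, with a GATA motif (AGATAA or TGATAA, both strands) in capitals. Hba-a1 is shown at chr11:32283422-32283510 on the plus strand and Alas2 at chrX:150547225-150547374 on the plus strand.
Hba-a1: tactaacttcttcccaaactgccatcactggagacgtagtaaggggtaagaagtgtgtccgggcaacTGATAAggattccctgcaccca
Alas2: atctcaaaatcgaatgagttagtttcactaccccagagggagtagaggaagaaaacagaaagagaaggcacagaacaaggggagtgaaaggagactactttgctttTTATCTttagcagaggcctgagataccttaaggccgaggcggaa
The next pair are keratins of the inner root sheath of the hair follicle, with a TATA box (TATAAA, both strands) in capitals. Krt71 is shown at chr15:101743110-101743259 and Krt25 at chr11:99322952-99323101, both on the minus strand.
Krt71: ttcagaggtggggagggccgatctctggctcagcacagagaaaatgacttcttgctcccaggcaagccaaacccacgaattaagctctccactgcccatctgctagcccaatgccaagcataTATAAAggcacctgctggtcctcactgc
Krt25: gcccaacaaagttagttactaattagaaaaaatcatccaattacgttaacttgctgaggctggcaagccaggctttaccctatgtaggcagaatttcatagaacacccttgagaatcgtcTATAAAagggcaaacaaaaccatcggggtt
The last is Dct, an enzyme of pigment synthesis in melanocytes, at chr14:118052322-118052471 on the minus strand, with an E-box in capitals, whose letters read CACATG on the opposite strand.
Dct: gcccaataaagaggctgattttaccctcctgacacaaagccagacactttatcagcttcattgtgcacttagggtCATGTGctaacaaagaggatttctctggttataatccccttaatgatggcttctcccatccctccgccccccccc

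Over 250 bases before the start, a GATA motif stood in 6 of the 9 haemoglobin genes with a promoter in the table (66.7%) and in 7 of 15 red cell membrane genes (46.7%), against 18.8% of all 27025 genes. It stood in 4 of 13 haem and iron genes (30.8%) and in 2 of 15 reticulocyte maturation genes (13.3%). Lists with no red cell genes reached similar shares, such as 5 of 7 melanocyte genes (71.4%) and 3 of 7 genes each of the basal epidermis and MHC class II lists (42.9%). A TATA box stood in 13 of 18 genes of the hair shaft and inner root sheath (72.2%), against 14.3% of all genes. The E-box stood in 5 of 7 melanocyte genes (71.4%), against 13.8%, and a GATA motif in as many of these 7. The ETS motif AGGAAGT stood in 7 of 14 T cell genes and in 6 of 12 monocyte genes, against 8.8% of all genes. These matches describe letters, not binding. Among the genes tested, a GATA motif was found in 13.7% of those called higher in blood, 10.9% of those called higher in skin and 11.4% of the others. Searched in the same way were the CACCC box (CCACACCC, with CCGCACCC as its other form), the CCAAT box, the AP-1 site TGANTCA and the TCF site CTTTGAA. The GATA and TATA letters can share bases.

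Total counts ran from 19600892 to 40678246 in skin and from 11197265 to 16310474 in blood. Skin libraries held a count for 21871 to 22927 genes and blood libraries for 15391 to 16846. Between 4.99% and 13.1% of the counts in skin fell on the top 10 genes, against 69.0% to 82.5% in blood, where haemoglobin alone took 60.7%, 74.6%, 71.3% and 75.9% in M1 to M4. In skin haemoglobin took 0.00709%, 0.00475%, 0.0438% and 0.031%. Because haemoglobin crowds out the other genes in blood, levels are given as CPM of a library size scaled by TMM factors, called scaled CPM. A scaled CPM equals 1.66 to 4.06 times the plain CPM in blood and 0.331 to 0.401 times in skin, and for the globins the share of counts is given in its place. All log2 values are skin minus blood on this scale unless said otherwise.

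With animal as a pair, edgeR's quasi-likelihood test called 6005 genes higher in skin (39.8% of those tested) and 3837 higher in blood (25.4%) at a Benjamini-Hochberg adjusted p under 0.05, and left 5252 uncalled. Against a minimum fold of 2 the test called 3891 genes in skin (25.8%) and 2272 in blood (15.1%). The 4 skin libraries all lay above the 4 blood libraries for 5806 genes (38.5%) and below them for 3766 (25.0%). Folds of at least 100 were found for 596 genes called in skin and 289 called in blood. The median gene had a log2 of 0.37. The split rests on the scale: per library total, with no TMM factor, the median gene had a log2 of 3.32, and 13280 genes were called higher in skin and 803 in blood. All 6005 skin calls held on that scale, and so did 802 of the blood calls, while 2063 blood calls became skin calls. The skin share of all calls was 61.0% with the factors and 94.3% without them. The factors moved the median gene by 2.95, so blood calls of small size hold only on the scaled measure. Among the genes named below, those with a log2 between 0 and -2.91 turned above 0 per library total. A further 6 stayed below 0 but lost their call there: Lyz2 (-0.45), Irf8 (-0.80), Prdx2 (-0.54), Il18r1 (-0.36), Cxcr6 (-0.08) and Trbc2 (-0.81).

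**Figure D1:**
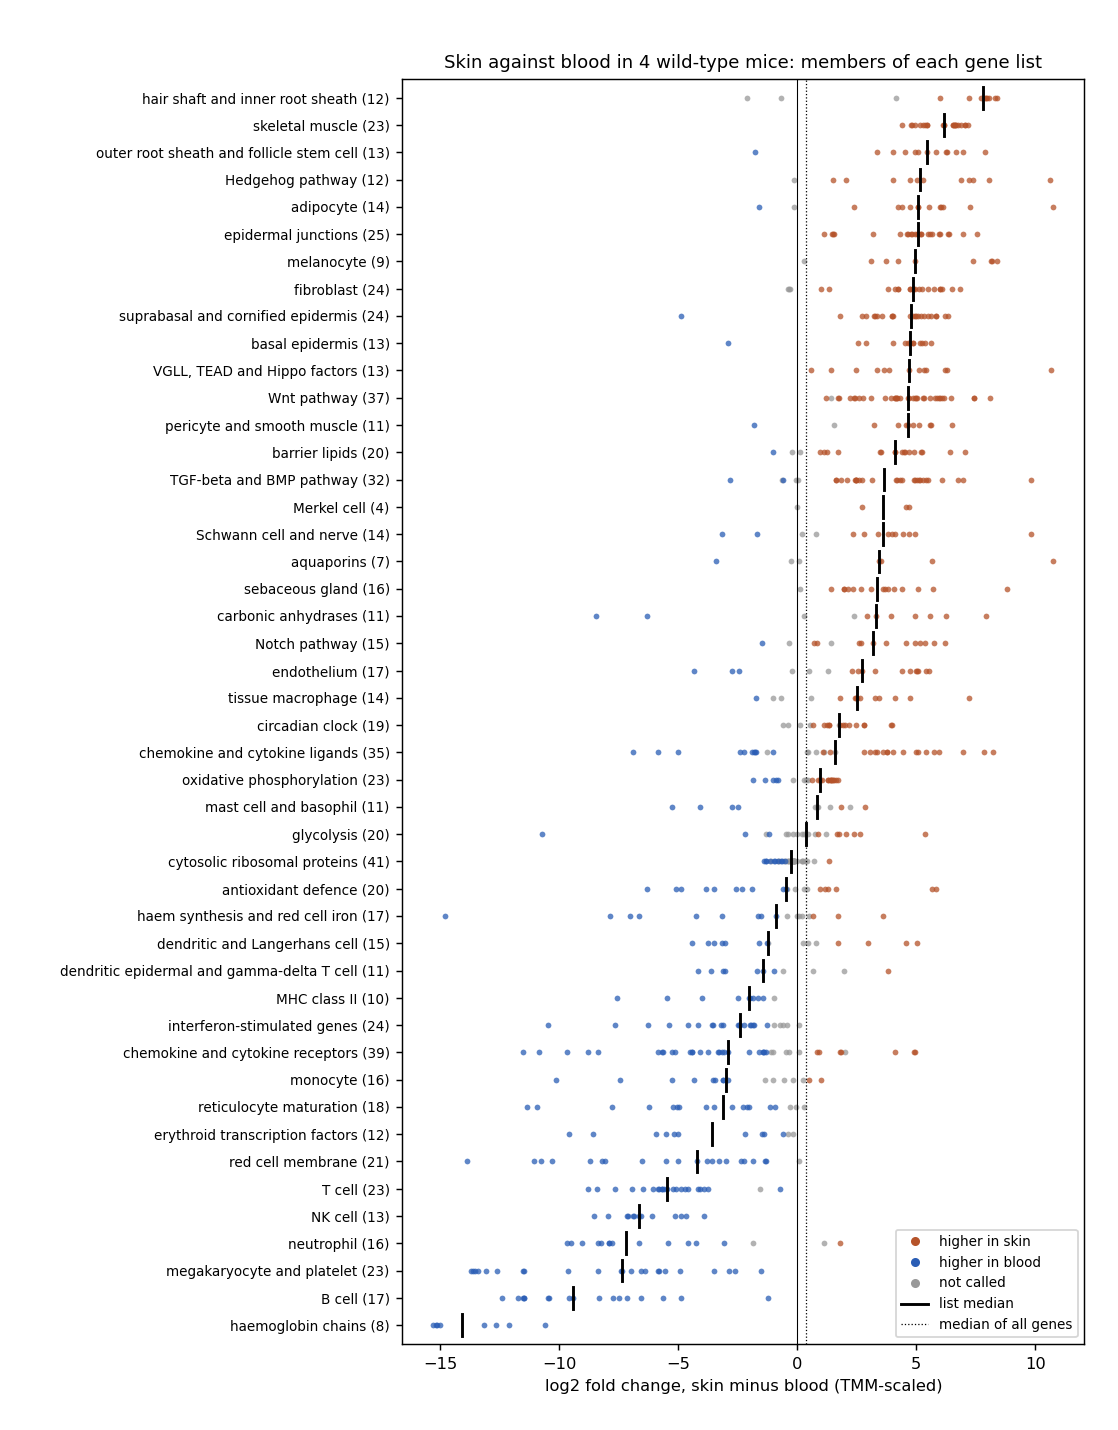
Log2 fold change (skin minus blood, TMM-scaled, horizontal axis) of every tested member of each gene list (rows, number tested in brackets) in the 4 wild-type mice. Each point is a gene, coloured by its call, the black bar is the median of the list and the dotted line the median of all genes at 0.37. Haemoglobin, B cell and platelet lists lie farthest toward blood, and hair, muscle and outer root sheath lists farthest toward skin.

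The globin genes of adult haemoglobin took the largest shares of the counts of blood. Hbb-bs took 46.5% of the counts of blood on average and 0.0145% of those of skin, and Hbb-bt took 8.39% and 0.00261%. Among the alpha chains, Hba-a1 took 9.58% of the counts in blood and Hba-a2 6.13%. Their log2 values ran from -15.01 to -15.28, and the tissues did not overlap for any of them. All 8 haemoglobin genes in the table were called higher in blood, with a median of -14.09. The split among Hba-a1 and Hba-a2, and between Hbb-bs and Hbb-bt, is uncertain because the copies are nearly identical. Without M4 the adjusted p of Hbb-bs missed the threshold at 0.083, with the log2 at -15.38, and without M3 the log2 of Hbb-bs, Hbb-bt and Hba-a2 came to -15.72, -15.79 and -15.91.

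Haem is made in a chain of 8 enzymes whose entry step, 5-aminolevulinate synthase, exists as the erythroid Alas2 and the ubiquitous Alas1. Alas2 stood at 1.40, 0.837, 9.08 and 5.70 scaled CPM in skin of M1 to M4 and took 3.04% of the counts of blood on average. Alas1 was called the other way, with 27.5, 38.5, 26.4 and 25.8 in skin against 14.8, 11.7, 26.4 and 8.90 in blood (log2 1.0 ± 0.298 SE, adjusted p = 0.0179). For Alas1 the tissues overlapped in M3, and the call was lost without M2 (log2 0.65) or without M4 (0.84). Alas2 was at -14.80 (SE 1.72, adjusted p = 1.26e-04), at -14.16 without M2 and at -15.46 without M3. Fech, which puts iron into the ring, was at -7.86 with 24 to 38.3 in skin and 4074 to 11660 in blood. Of the 8 enzymes of the list, which holds Alas2 but not Alas1, 5 were called higher in blood and 1, Alad, in skin (1.71).

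Iron handling was divided in the same way. The mitochondrial iron importer Slc25a37 stood at 13.3, 7.31, 92.1 and 19.8 in skin and at 1233, 3494, 1941 and 2149 in blood (log2 -6.65 ± 0.801, adjusted p = 1.58e-04). It was at -6.04 without M2 and -7.37 without M3, whose skin library was the highest. Slc25a39, a carrier of the same membrane, was at -7.03 and Glrx5, which serves iron-sulphur clusters, at -4.24. The ferrireductase Steap3 went the other way at 3.59, with 20.2 to 41.2 in skin and 0.845 to 4.60 in blood. Slc11a2, the iron transporter DMT1, was called higher in skin at 0.65, a call lost without M2 (0.43), M3 (0.62) or M4 (0.67). Over the whole list of haem and red cell iron genes 9 of 17 were called in blood and 3 in skin, and the median was -0.89 with TMM factors and 2.07 without.

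The skeleton and the pumps of the red cell membrane followed haemoglobin. Of 21 tested members 20 were called higher in blood and 0 in skin, with a median of -4.20 that stayed below 0 per library total (-1.27). Slc4a1, the anion exchanger band 3, stood at 0.860, 0.0279, 13.6 and 2.20 in skin and at 1176, 2685, 1581 and 2351 in blood. Blood lay above skin in each animal, but the skin libraries differed among themselves far more than the blood libraries. Its log2 was -10.29 (SE 1.47, adjusted p = 4.22e-04), -9.28 without M2 and -11.43 without M3. Epb41, which ties the skeleton to the membrane, had means of 47.3 and 13970 (log2 -8.21).

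A membrane gene that both tissues share was the exception. The water channel Aqp1, found in red cells and in capillary endothelium, stood at 95.1, 84.4, 41 and 61.1 in skin and at 47.6, 90.9, 56.9 and 67.5 in blood. Its libraries overlapped and its log2 was 0.06 (SE 0.257, 95% interval -0.53 to 0.66, adjusted p = 0.84), with the sign turned without M1 (-0.22) and a call in skin per library total (3.03).

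Erythroid transcription factors and the machinery of reticulocyte maturation were called toward blood in 10 of 12 and 15 of 18 genes, and toward skin in 0 of both. Gata1, the master factor of red cells and platelets, stood at 0.0473 to 0.140 in skin and at 20.1, 39.4, 32.1 and 29.1 in blood (log2 -8.60 ± 0.30, adjusted p = 1.8e-06). Nfe2, a factor of globin and platelet genes, was at -9.59 and the adaptor Lmo2 at -5.53. E2f2, a cell cycle factor of late erythroblasts, was at -4.99. All 8 ubiquitin pathway genes of the list, which tag proteins for destruction as the cell matures, were called in blood. Ube2l6 had 4.86, 5.12, 5.12 and 7.38 in skin and 8587, 21990, 12650 and 18870 in blood (log2 -11.36 ± 0.762, adjusted p = 8.1e-06). Ube2o, which strips ribosomes from reticulocytes, was at -7.77, and Bnip3l, which removes mitochondria, at -6.21. Per library total the median of the transcription factor list was -0.64 and that of the reticulocyte list -0.15, so the second lay close to 0 on that scale.

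Among metabolic enzymes, Bpgm, which makes the 2,3-bisphosphoglycerate that loosens oxygen from haemoglobin, took 1.37% of the counts of blood and 0.00657% of those of skin (log2 -10.72 ± 1.06, adjusted p = 5.3e-05). Of 20 glycolysis genes 7 were called in skin and 3 in blood, and the median of 0.37 was equal to that of all genes. Over all tested genes 39.8% were called in skin and 25.4% in blood, and neither share of this list was above these. Of 11 carbonic anhydrases, which convert carbon dioxide to bicarbonate, 7 were called in skin and 2 in blood. Car2 stood at 2.17, 0.767, 8.47 and 2.32 in skin and at 644, 1512, 647 and 887 in blood (log2 -8.44), and at -7.81 without M2 and -9.18 without M3. Car3, the isoform of muscle and fat, stood at 1472, 1487, 530 and 640 in skin and at 9.29, 11.4, 10.2 and 21.5 in blood (log2 6.23 ± 0.518, adjusted p = 2.1e-05).

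Defence against peroxide was also divided by gene. The glutathione peroxidase of cells, Gpx1, had a mean of 85.3 in skin and 7506 in blood (log2 -6.32), whereas the secreted Gpx3 had 372 and 5.86 (log2 5.82). Catalase, Cat, was at -3.84 and peroxiredoxin 2, Prdx2, at -3.48, while peroxiredoxin 1, Prdx1, was at 1.16 with 90.2 to 107 in skin and 38.4 to 48.6 in blood. Of 20 antioxidant genes 10 were called in blood and 6 in skin. Their median was -0.46 with TMM factors and 2.5 without.

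Paralog pairs allow the tissues to be compared without any scaling, because both genes are counted in the same library. Of 22 pairs listed of a form known from blood cells and a form known from other cells, 20 had both genes tested. The ratio of the 2 genes, as log2 of counts per kb of exon with 0.5 added to each count, was higher in blood than in skin in 4 of 4 animals for 19 of these 20. The pairs were chosen from known biology with the blood form first, so this count is no test and only the sizes are informative. For Alas2 over Alas1 the ratio was -2.93, -4.15, -0.18 and -0.82 in skin and 13.09, 14.90, 12.79 and 14.77 in blood, a difference of 15.91 ± 2.49 (SD, n = 4 animals). For Car2 over Car3 the difference was 14.72 ± 2.60. For Prdx2 over Prdx1 it was 4.67 ± 0.911, and the skin ratio was near 0, so the pair was even in skin per length.

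Pairs of adhesion and cell skeleton regulators gave ratios higher in blood, although the members were called in different ways. For the kindlins, which switch on integrins, blood Fermt3 was called in blood (-5.57) and Fermt2 in skin (4.78), and the ratio differed by 10.45 ± 1.68. The Rac GTPases Rac2 and Rac1 were both called in blood (-5.60 and -1.61, with Rac1 at 1.35 per library total), and their ratio differed by 3.99 ± 0.828. In 9 pairs the first gene was called in blood and the second in skin, and in 4 pairs both were called in blood. The exception was lactate dehydrogenase, with Ldhb over Ldha lower in blood in 3 of 4 animals, at -0.99 ± 1.24, and both genes called in skin (2.63 and 1.65).

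**Figure D2:**
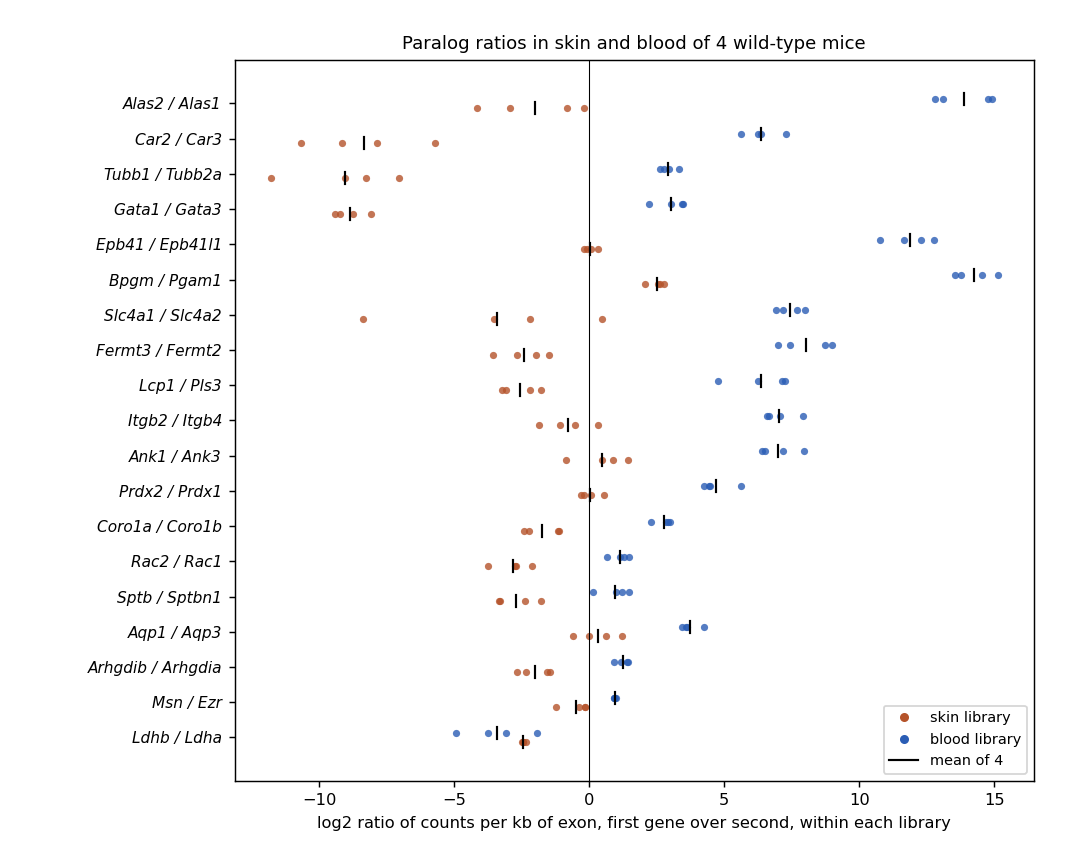
Log2 ratio of the 2 genes of each paralog pair within each library, in counts per kb of exon (horizontal axis), for skin and blood of the 4 wild-type mice. Points are libraries and bars the mean of 4. Blood points lie to the right of skin points for 18 of the 19 pairs drawn, and Ldhb over Ldha is the exception.

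Platelet genes were called higher in blood without exception, in 23 of 23 tested members with a median of -7.37, and -4.40 per library total. The chemokine Ppbp, stored in platelet granules, stood at 0.0179, 0.223, 0.13 and 0.208 in skin and at 1624, 2682, 1316 and 1429 in blood (log2 -13.54 ± 0.659, adjusted p = 2.9e-06). Nrgn, a calmodulin-binding protein known from neurons and platelets, had means of 0.649 and 1809 (log2 -11.46). The integrin Itga2b, which binds fibrinogen, stood at 3.03 to 3.75 in skin and at 987, 1580, 1006 and 1081 in blood (log2 -8.38). Tubb1, the tubulin of the platelet's marginal ring, was at -13.40, and at -14.31 without M3. Plek, a target of protein kinase C in platelets and leukocytes, was at -7.42.

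Leukocytes as a whole were read from Ptprc, which encodes CD45. It stood at 8.41, 22.7, 11.4 and 23.1 scaled CPM in skin and at 871, 650, 849 and 526 in blood, a log2 of -5.57 (SE 0.473, adjusted p = 2.35e-05), and it stayed below 0 per library total (-2.59). Among neutrophil genes 13 of 16 tested were called in blood. The alarmin S100a9 stood at 0.556, 0.251, 6.75 and 0.633 in skin and at 813, 326, 3251 and 222 in blood, so M3 was the highest animal in both tissues (log2 -9.49 ± 0.548, adjusted p = 4.7e-06). Csf3r, the receptor for the growth factor of neutrophils, was at -8.39 with 188 to 728 in blood. Of 10 granule protein genes 6 were tested and 5 of them called in blood, with sums over the list of 281, 109, 714 and 94.2 scaled CPM in blood of M1 to M4. Mpo and Elane, granule enzymes made in marrow precursors, had 0 counts in all 4 blood libraries and 7 and 15 in skin, too few for a test. Il1r2, a decoy receptor for interleukin 1, was called higher in skin at 1.79 with overlapping tissues, a call lost without M2 (1.11) and without M4 (1.52), and it was at 2.52 without M3.

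Most called monocyte genes were higher in blood and most called macrophage genes higher in skin. Lyz2, the lysozyme of myeloid cells, was at -3.44, and Ccr2, the receptor that brings monocytes out of the marrow, at -2.91, or -2.26 without M1. The mannose receptor Mrc1, a marker of resident macrophages, stood at 24.8, 75.6, 43.9 and 104 in skin and at 4.79, 3.47, 3.71 and 8.59 in blood (log2 3.44 ± 0.323, adjusted p = 4.0e-05). In all, 9 of 16 monocyte genes were called in blood and 2 in skin, and 10 of 14 macrophage genes in skin and 1 in blood. The 2 monocyte genes in skin were the factors Cebpb (1.01) and Nr4a1 (0.49), and the call of Nr4a1 was lost when any animal was left out (0.38 to 0.58). The macrophage gene in blood was the Fc receptor Fcgr3 (-1.73), lost without M1 (-1.26) and at -2.38 without M2. Per library total the monocyte median was near 0 (-3.00 with factors) and the macrophage median 5.57 (2.5 with factors).

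The complement chains C1qa, C1qb and C1qc were called in skin, but blood of M4 stood apart. C1qa stood at 17.8, 48.1, 45.7 and 83.0 in skin and at 1.13, 1.26, 8.86 and 71.8 in blood (log2 2.52 ± 0.681, adjusted p = 0.0116). The tissues overlapped because of M4. Without M4 the log2 of C1qa, C1qb and C1qc was 3.54, 3.30 and 3.43, and without M2 it was 1.79, 1.87 and 1.66, where C1qc lost its call. Without the pairing by animal their log2 was 1.28, 1.45 and 1.19, and the calls were lost. The mast cell chymase Mcpt4 and the endothelin receptor Ednrb of pigment cells and vessels had the same library apart, with 10.4 and 32.2 in blood of M4 against at most 1.29 and 1.77 in the other 3 animals. Mcpt4 was at 2.85, 3.92 without M4 and 2.24 without M2. Summed over the lists, blood of M4 held 407 scaled CPM of resident macrophage genes and 44.2 of melanocyte genes, against 66.6 to 209 and 7.25 to 9.78 in the other 3 blood libraries, and 77.0 of mast cell genes against 8.03 to 12.6. The part of this library in these results was not tested beyond leaving it out.

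Lymphocyte genes were called toward blood in 22 of 23 T cell, 17 of 17 B cell and 13 of 13 NK cell genes, with medians of -5.47, -9.43 and -6.65. Lck, the kinase of the T cell receptor, stood at 1.90, 1.58, 1.84 and 2.77 in skin and at 78.3, 99.1, 109 and 126 in blood (log2 -5.68 ± 0.221, adjusted p = 2.0e-06). Ccr7, which guides naive T cells to lymph nodes, was at -8.78, and the constant region Trbc2 at -3.77. For B cells, Ighd, the heavy chain of naive cells, had means of 0.655 and 466 (log2 -9.43), and the antigen receptor chain Cd79b 0.361 and 277 (log2 -9.57). Ighm was nearer, with 65.0, 46.0, 22.6 and 26.0 in skin and 1176, 1311, 978 and 906 in blood (log2 -4.89 ± 0.336, adjusted p = 8.9e-06). The NK granzyme Gzma was at -8.54 and the granule protein Nkg7 at -4.68.

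Lists for dendritic cells and gamma-delta T cells, which include cells resident in the epidermis, held calls in both directions and leaned to blood on the scaled measure. Cd207, langerin of Langerhans cells, stood at 3.85, 9.18, 2.88 and 5.71 in skin, and blood held counts in M1 alone. By counts alone, 1786 in skin and 3 in blood, the ratio was 34.5 (exact 95% binomial interval 11.8 to 167, counting error only). The fitted log2 was 5.02, at 4.40 without M2 and 11.01 without M1, where blood had no count and the value depends on the prior count of the fit. Epcam, an adhesion molecule of Langerhans cells and follicle keratinocytes, was at 4.55, and Mfge8, an opsonin, at 2.96. Irf8, a factor of dendritic cells and monocytes, was at -3.76. Over the dendritic and Langerhans cell list 7 of 15 were called in blood and 4 in skin, and the median of -1.24 turned to 1.74 per library total. In the list for gamma-delta T cells, which include the dendritic T cells of mouse epidermis, 7 of 11 were called in blood and only the factor Sox13 in skin (3.82, and 4.79 without M3), with a median of -1.44 that turned to 1.54.

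MHC class II genes, which present antigen, were higher in blood on the scaled measure and not per library total. Cd74, the invariant chain, stood at 181, 707, 327 and 436 in skin and at 1748, 1668, 1449 and 1230 in blood (log2 -2.03 ± 0.404, adjusted p = 0.0026). The chains H2-Aa, H2-Ab1 and H2-Eb1 were at -1.85, -1.43 and -1.66, and at 1.14, 1.57 and 1.33 per library total, with Cd74 at 0.97. Of 10 genes 9 were called in blood, and the median turned from -2.01 to 0.98.

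**Figure D3:**
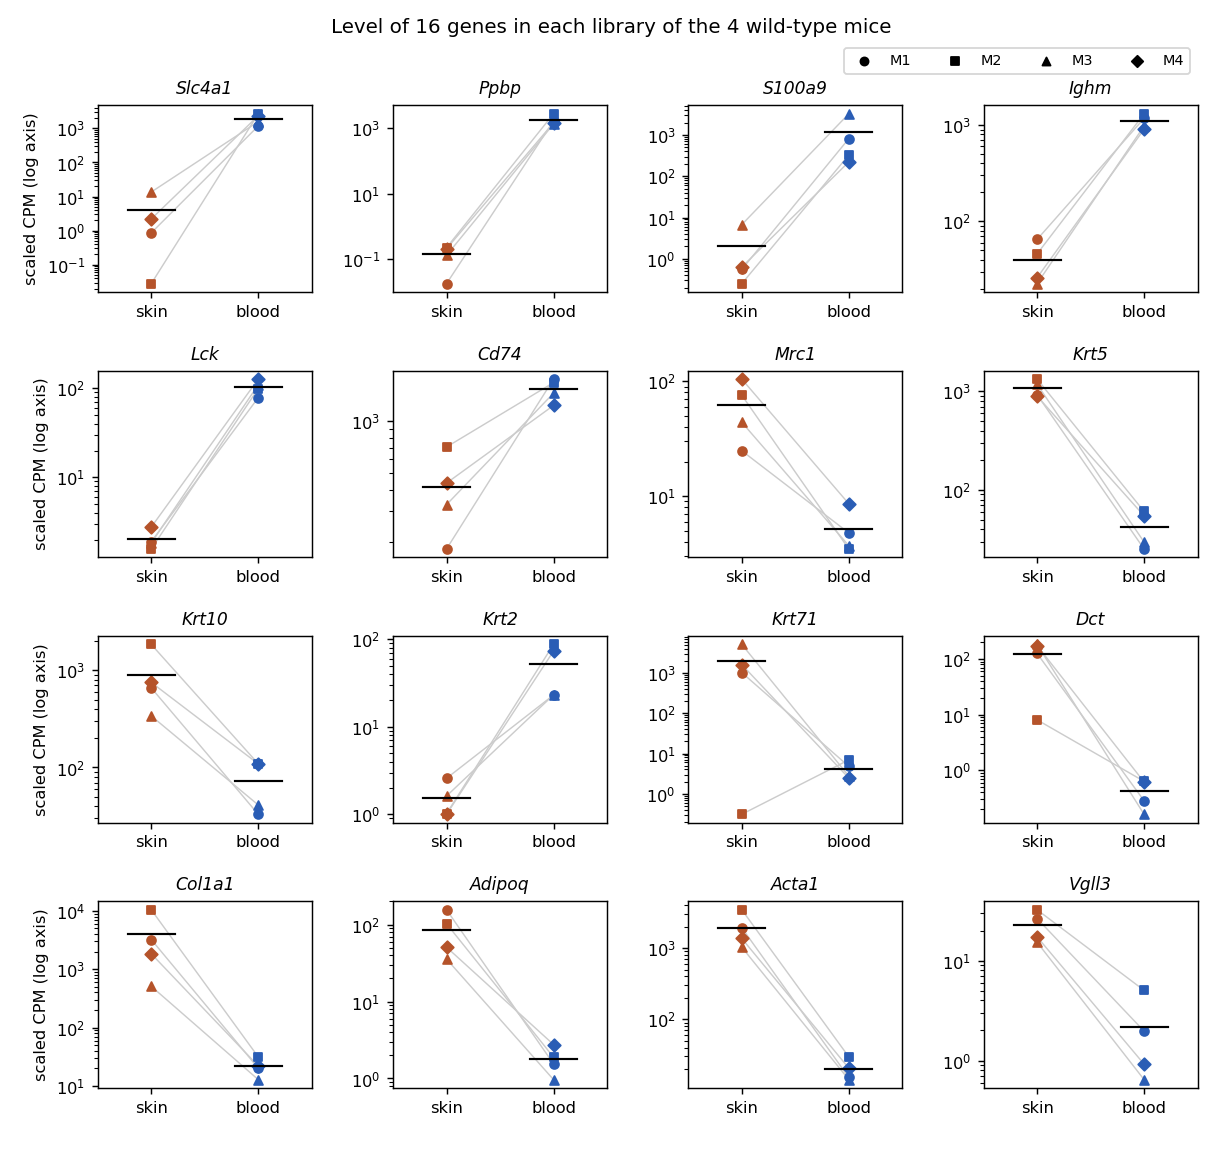
Scaled CPM (log axis) of 16 genes in skin and blood of each wild-type mouse. Symbols mark the animals M1 to M4, thin lines join the tissues of an animal and bars are means. Krt71 and Dct in skin of M2 lie far below the other 3 skin libraries, and Krt2 is higher in blood than in skin in all 4 animals.

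Keratins of the basal epidermis were higher in skin in each animal. Krt5 stood at 926, 1331, 1178 and 896 in skin and at 25.2, 60.6, 29.6 and 54.6 in blood (log2 4.75 ± 0.350, adjusted p = 1.2e-05). Its partner Krt14 had means of 557 ± 87.5 and 37.1 ± 18.7 (SD, n = 4 each, log2 4.03), Krt15 was at 5.37, and the hemidesmosomal collagen Col17a1 at 5.22. Of 13 basal genes 12 were called in skin, and Itga6, the laminin-binding integrin that platelets carry too, in blood. Itga6 stood at 77.2, 84.6, 52.5 and 54.4 in skin and at 492, 659, 419 and 428 in blood (log2 -2.90 ± 0.221, adjusted p = 1.4e-05), though it was even per library total (0.06). Adhesion genes went with these keratins: 25 of 25 genes of desmosomes and other junctions were called in skin, with a median of 5.05 and with desmoplakin, Dsp, at 811 in skin and 18.5 in blood (log2 5.50).

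In the upper epidermis, Krt10 stood at 661, 1850, 340 and 752 in skin and at 32.9, 109, 41.1 and 109 in blood (log2 3.56 ± 0.361, adjusted p = 6.0e-05). Krt77, a keratin of the same layers, was at 5.82 and at 5.22 without M2, and Krt1 at 2.89. Dmkn and Krtdap, secreted by differentiating keratinocytes, were at 4.86 and 3.97. In all 23 of 24 members were called in skin, with a median of 4.79 over the list. M2 had the highest level of the 4 skin libraries for Krt10, Krt77, Krt1, Dmkn and Krtdap. For the lipid barrier 17 of 20 genes were called in skin and only the glucosylceramide synthase Ugcg in blood (-1.0), with Elovl4, which makes very long fatty acids, at 4.39.

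Krt2, a keratin of the upper epidermis at chr15:101810689-101818169 on mm10, was the member called toward blood. As plain CPM of the library total it stood at 7.35, 2.54, 4.28 and 3.03 in skin and at 13.9, 21.5, 8.83 and 21.3 in blood of M1 to M4. So Krt2 was higher in blood in each animal even before scaling, and on the scaled measure its log2 was -4.9 (SE 0.623, adjusted p = 2.15e-04), or -5.49 without M1. Krt10 in the same units was 1880, 4612, 897 and 2271 in skin and 19.8, 26.9, 15.6 and 31.7 in blood. Krt2 counts were thus 0.0550% to 0.477% of Krt10 counts in skin and 56.5% to 80.1% in blood. In blood of the transgenic mice Krt2 was at 0.113, 0.165, 0.0744 and 0, and Krt10 at 0.339, 1.04, 0.223 and 1.06, below each wild-type blood library. Krt5 in blood was 11.3 to 15.9 in the wild type and 0.447 to 1.36 in the transgenic animals. The hair keratins Krt36 and Krt84 were at 0.920 to 6.79 in blood of the wild type and at 0 to 0.17 in blood of the transgenic mice. Other hair genes did not follow: Krt71 was at 0.715 to 2.88 and 1.86 to 4.58, and Tchh at 0.357 to 1.44 and 1.06 to 5.54. Summed over the hair list, plain CPM in blood overlapped, at 6.44 to 17.8 in the wild type and 6.03 to 24.5 in the transgenic mice. Where the keratin counts of wild-type blood came from was not tested.

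**Figure D4:**
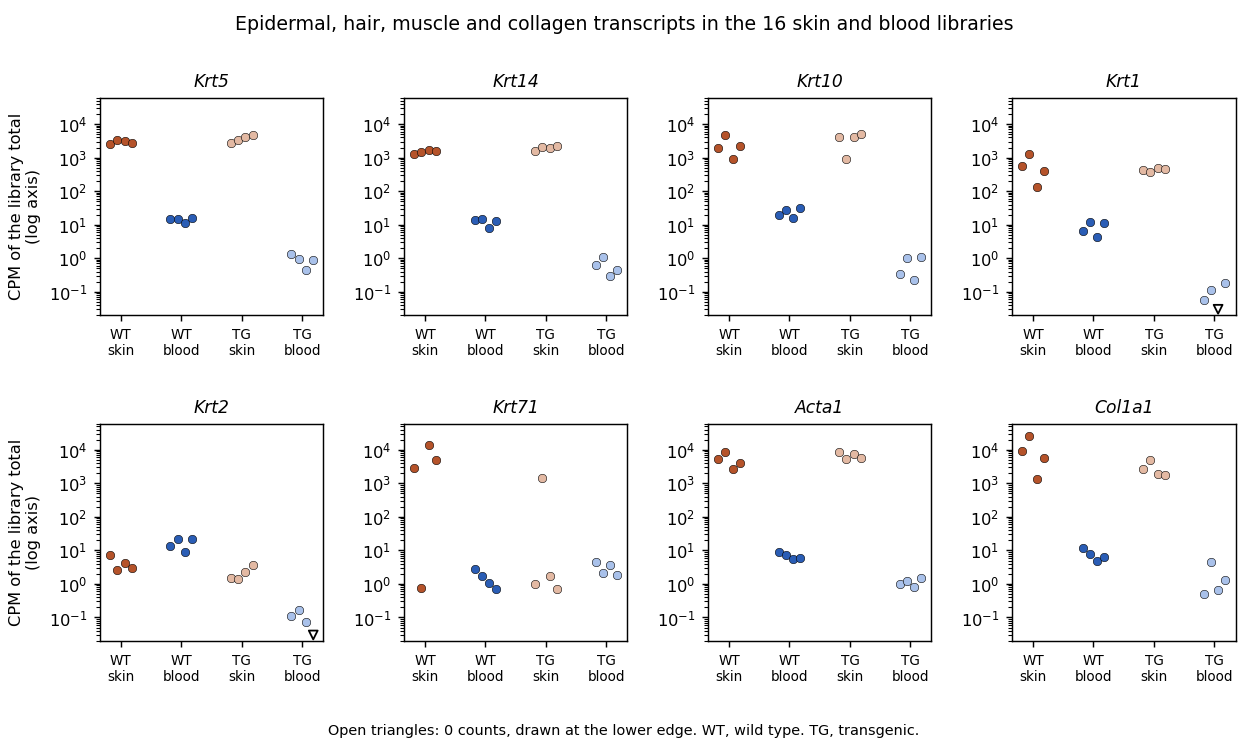
Plain CPM of the library total (log axis) of 8 genes of epidermis, hair, muscle and collagen in skin and blood of the 4 wild-type (WT) and 4 transgenic (TG) mice. Points are libraries and open triangles mark 0 counts. Krt5, Krt14, Krt10, Krt1, Krt2, Acta1 and Col1a1 are higher in each wild-type blood library than in each transgenic blood library, and Krt71 is not. Krt2 in wild-type blood lies above wild-type skin.

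Genes of the hair shaft and inner root sheath separated the skin libraries more than any other list. Summed over 25 genes they came to 2947, 14, 22550 and 5105 scaled CPM in skin of M1 to M4. In blood they came to 19.9, 69.4, 16.9 and 61.0, so on this scale skin of M2 lay below each of the 4 blood libraries. As plain CPM, skin of M2 lay above each of them, at 35.0 against 6.44 to 17.8. Krt71, whose promoter is shown above, stood at 1035, 0.307, 5196 and 1631 in skin and at 4.79, 6.94, 2.74 and 2.45 in blood (log2 7.88 ± 2.73, adjusted p = 0.0327). Trichohyalin, Tchh, which hardens the root sheath, had 629, 2.41, 5293 and 989 in skin, and Krt25 476, 0.0279, 2132 and 878. On the scaled measure the tissues overlapped for all of these because of M2. Without M2 the log2 rose to 9.18 for Krt71, 9.36 for Tchh and 8.82 for Krt25. Without M3 it came to 6.40, 6.55 and 7.08, and Krt71 lost its call. Without M1 or M4 all 3 calls were lost, at 7.16 to 8.16. Only 12 of the 25 passed the filter on low counts, which asks for counts in 4 libraries, and 13 genes such as Krt31, with 32950 counts in skin and 7 in blood, could not be tested.

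Pigment cell genes had the same animal apart. Dct stood at 126, 8.06, 183 and 175 in skin and at 0.282, 0.631, 0.161 and 0.614 in blood (log2 8.39 ± 0.625, adjusted p = 1.3e-05), or 7.79 without M3. Tyrp1 stood at 67.4, 2.02, 102 and 89.3 in skin, with 5 counts in blood, all in M1 (log2 8.16, 7.34 without M3, and 14.83 without M1, where blood had no count). For both genes skin of M2 lay far below the other skin libraries but above each blood library. The amyloid protein Pmel of the melanosome was at 4.25, with an overlap through M2, at 5.16 without M2 and 3.54 without M3. The receptor Ednrb was at 3.71, 5.51 without M4 and 2.75 without M1, and lost its call without the pairing by animal (2.42). Of 9 tested melanocyte genes 8 were called in skin. Other genes with M3 highest and M2 lowest in skin were Dlx3, a homeobox factor of hair (75.7, 7.41, 178 and 116, log2 7.87, 8.82 without M1 and 7.04 without M3), and Crym, a thyroid hormone binding protein (9.70, 0.99, 288 and 44.5, log2 8.16, 9.76 without M1 and 5.68 without M3).

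Among genes of the outer root sheath and the follicle's stem cells, Krt17 stood at 379, 289, 1036 and 531 in skin and at 3.87 to 8.52 in blood (log2 6.28 ± 0.522, adjusted p = 2.1e-05). Krt75, of the companion layer, was at 7.88, and at 7.21 without M3, and Krt79, of the gland duct, at 5.07. Here 12 of 13 were called in skin, and Nfatc1, a factor of stem cells and of lymphocytes, in blood (-1.78). For the sebaceous gland 15 of 16 were called in skin and 0 in blood, with the desaturase Scd1 at 1481, 1503, 534 and 457 in skin and 183 to 260 in blood (log2 1.97).

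The collagen genes named here were called in skin, and their order among animals ran against that of the hair genes. Col1a1 stood at 3226, 10440, 511 and 1841 in skin and at 20.3, 31.6, 12.9 and 22.1 in blood (log2 6.85 ± 0.658, adjusted p = 4.5e-05), or 6.23 without M2. M2 had the highest and M3 the lowest skin level for Col1a1, Col1a2, Col3a1 and Sparc, the reverse of their order for Krt71. Col1a2 was at 6.49, Col3a1 at 6.06 and Sparc, which binds collagen and calcium, at 5.98. Of 24 fibroblast genes 21 were called in skin and 0 in blood, with a median of 4.84. With 4 animals the opposite order of collagen and hair genes is a description.

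Vessel genes were called in both directions. Cdh5, the cadherin of endothelial junctions, stood at 41.6, 22.1, 13.1 and 14.3 in skin and at 0.563 to 1.58 in blood (log2 4.72 ± 0.414, adjusted p = 2.8e-05), or 4.08 without M1. Pecam1, an adhesion molecule of endothelium, platelets and leukocytes, went the other way at -2.74, as did Esam at -2.44 and Mmrn1, a factor V binding protein of platelets and lymphatic vessels, at -4.34. Per library total Pecam1 and Esam were above 0 (0.23 and 0.52). In total 11 of 17 vessel genes were called in skin and these 3 in blood. Among contractile cells of vessel walls 9 of 11 were called in skin, with desmin, Des, at 6.49, and the kinase Mylk in blood (-1.82).

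Skeletal muscle and fat were strongly represented. All 23 tested muscle genes were called in skin, with a median of 6.17. Acta1, skeletal actin, stood at 1937, 3474, 1032 and 1370 in skin and at 15.2, 29.7, 14.2 and 20.6 in blood (log2 6.53 ± 0.384, adjusted p = 4.8e-06). As plain CPM, Acta1 in blood was 5.4 to 9.15 in the wild type and 0.819 to 1.5 in the transgenic mice. The median of the muscle list was 8.84 in the transgenic mice. The fast myosin Myh4 was at 7.04 and the calcium pump Atp2a1 at 6.76 in the wild type. For adipocytes 12 of 14 were called in skin. The hormone Adipoq stood at 156, 103, 35.7 and 50.9 in skin and at 0.967 to 2.76 in blood (log2 5.54), while the acyl-CoA synthetase Acsl1, also made by leukocytes, was called in blood (-1.62). Of 14 Schwann cell genes 10 were called in skin, and 2 in blood, among them the myelin gene Mbp (-1.71).

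Signals that pattern skin were called in skin almost throughout. In the Wnt pathway 36 of 37 tested genes were called in skin and 0 in blood, with a median of 4.66: 13 of 14 ligands, 11 of 11 receptors and 12 of 12 inhibitors and targets. The receptor Fzd4 stood at 99.9, 60.7, 36.8 and 53.9 in skin and at 1.26 to 1.84 in blood (log2 5.28 ± 0.281, adjusted p = 3.5e-06). Lrp6, the co-receptor, was nearer at 1.2, with 51.3 to 72.0 against 23.5 to 32.9. In the Hedgehog pathway 11 of 12 were called in skin. Its receptor Ptch1 was at 2.04 and the transducer Smo at 4.74, or 5.57 without M4.

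In the Notch pathway 12 of 15 tested genes were called in skin and 1 in blood, with a median of 3.18. The ligands Jag1 and Jag2 were at 4.96 and 5.14. Notch1 was at 0.72 with overlapping tissues, and lost its call without M1 (0.61), without M2 (0.57) and without the pairing (0.73). Notch2 stood at 50.8, 51.7, 63.8 and 49.2 in skin and at 191, 124, 184 and 119 in blood (log2 -1.49 ± 0.198, adjusted p = 2.7e-04), but was at 1.48 per library total. In the TGF-beta and BMP pathway 27 of 32 were called in skin, among them 8 of 10 receptors. The 2 called in blood were the ligand Tgfb1, stored in platelets, at -2.84 (0.13 per library total), and the receptor Tgfbr1 at -0.61, lost without M1 (-0.56), M3 (-0.58) or M4 (-0.55). The BMP receptor Bmpr1a was at 4.31.

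Chemokines and cytokines differed between ligand and receptor. Of 35 tested ligands 19 were called in skin and 10 in blood, with a median of 1.58, and of 39 receptors 7 in skin and 26 in blood, with a median of -2.91 that came to 0.11 per library total. Over all tested genes 39.8% were called in skin and 25.4% in blood, so the blood share of the ligands was near that of all genes. Cxcl12, which holds and attracts leukocytes, stood at 136, 114, 90.8 and 93.6 in skin and at 2.11, 4.42, 3.06 and 4.60 in blood (log2 5.0 ± 0.309, adjusted p = 5.7e-06). Its receptor Cxcr4 stood at 3.59, 2.02, 5.14 and 4.48 in skin and at 88.6, 53.3, 91.0 and 87.4 in blood (log2 -4.44 ± 0.203, adjusted p = 2.4e-06). Neither gene overlapped between the tissues. The scavenging receptors Ackr3 and Ackr4, which take up chemokines without signalling through G proteins, were called in skin at 4.9 and 4.96.

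Of 24 ligand and receptor pairs listed, 18 had both genes tested. In 8 the ligand was called in skin and the receptor in blood, in 1 both in skin, in 3 both in blood, and in 0 the ligand in blood and the receptor in skin. The 8 included Ccl2 with Ccr2 (3.35 and -2.91), Cx3cl1 with Cx3cr1 (6.96 and -5.27), Ccl19 with Ccr7 (4.01 and -8.78) and Cxcl16 with Cxcr6 (2.82 and -3.07). They also included Tslp, a cytokine of keratinocytes, with Crlf2 (-2.01). Tslp had no count in blood and was at least 6.14-fold higher in skin. Il18 with Il18r1 (1.36 and -3.30) was another. The pair called in skin was Kitl, the stem cell factor, at 5.95 with its receptor Kit at 1.82. Per library total the receptors Ccr2, Cxcr6, Crlf2 and Il18r1 were not called. These pairs were chosen from known biology, and shared expression in a bulk sample shows no contact between cells.

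Several ligand values rest on few counts in blood. Cx3cl1 and Ccl19 had 1 count each in blood, and their ratios by counts were 137 (interval 24.7 to 5430) and 16.1 (2.87 to 638). The fitted log2 was 11.33 for Cx3cl1 without M2 and 8.33 for Ccl19 without M1, where blood had no count. Ccl2 was at 5.65 without M1 and 2.63 without M3. Kitl was at 5.31 without M1 and 6.86 without M4, Cx3cr1 at -5.90 and Il18r1 at -3.93 without M2. Il18 lost its call without M2 (0.92).

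**Figure D5:**
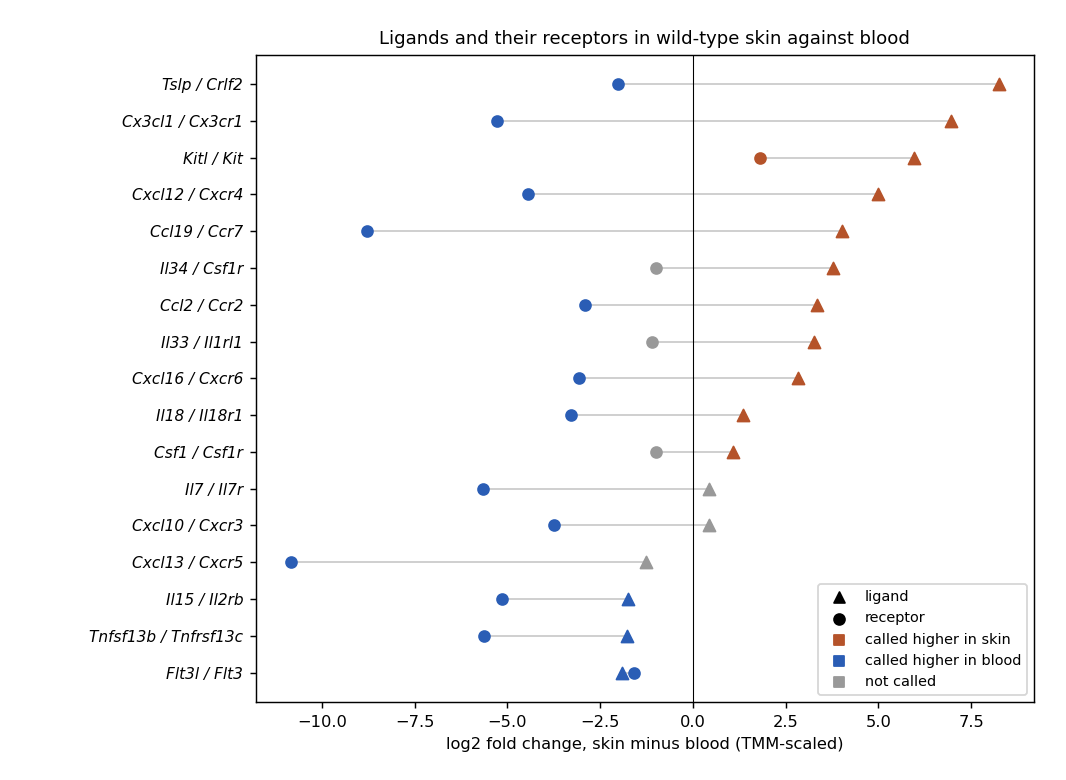
Log2 fold change (skin minus blood, TMM-scaled) of the ligand (triangle) and the receptor (circle) of 17 pairs in the 4 wild-type mice, coloured by call. In 7 of them a ligand called in skin faces a receptor called in blood, and Kitl with Kit is the only pair with both called in skin.

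Among interferon-stimulated genes, Rsad2, viperin, stood at 2.55, 1.63, 2.91 and 3.31 in skin and at 2317, 4745, 3025 and 5104 in blood (log2 -10.48 ± 0.577, adjusted p = 3.9e-06). Isg15 was at -7.65, the factor Irf7 at -5.40 and Oasl2, of the oligoadenylate synthetase family, at -4.18. Of 24 genes 19 were called in blood and 0 in skin, and the median of -2.41 turned to 0.55 per library total, where Rsad2, Isg15, Irf7 and Oasl2 stayed called in blood. Clock genes leaned to skin, with 14 of 19 called there and 0 in blood. Nr1d1, a repressor of the clock, stood at 35.7, 94.3, 21.4 and 31.3 in skin and at 0.316 to 6.75 in blood (log2 3.97), and at 3.19 without M2 and 4.74 without M4. The labels give no hour of sampling.

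Of 41 ribosomal protein genes 10 were called in blood, only Rpl15 in skin (1.34), and 30 were uncalled. Over all tested genes 39.8% were called in skin and 25.4% in blood, so the blood share of this list was near that of all genes. The median of the list was -0.27, and 2.68 per library total, where all 41 were called in skin. Rplp0, of the ribosomal stalk, stood at 261, 301, 410 and 296 in skin and at 506, 978, 852 and 853 in blood (log2 -1.31). Reads that also match processed copies of these genes may be left out of the counts, which was not tested. In oxidative phosphorylation 14 of 23 were called in skin and 5 in blood, with a median of 0.95.

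Vgll3, the gene of the study, and its partners were called in skin. Vgll3 lies at chr16:65815257-65866368 on mm10 and stood at 26.4, 32.4, 15.3 and 17.3 in wild-type skin and at 1.97, 5.05, 0.644 and 0.920 in blood (log2 3.64 ± 0.334, adjusted p = 3.5e-05). As plain CPM it was 40.4 to 80.8 in wild-type skin and 96.8, 829, 128 and 94.6 in transgenic skin of V1 to V4. The groups did not overlap, and V2 stood far above the other 3. The labels do not say whether the transgene holds the mouse sequence, so these counts are only a partial check of the genotype. Tead1, a DNA-binding partner, stood at 64.8, 63.2, 32.9 and 39.8 in skin and at 0.563 to 0.805 in blood (log2 6.20 ± 0.308, adjusted p = 2.9e-06). The Hippo effectors Wwtr1 (TAZ) and Yap1 were at 4.69 and 1.42, and the target Amotl2 at 3.86. All 13 tested genes of this list were called in skin, with a median of 4.69. Vgll4, a relative that represses TEAD factors, was the nearest to even at 0.57 and lost its call without M1, M3 or M4 (0.63, 0.50 and 0.47).

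Among the genes farthest toward blood outside the groups above were Apol11b, of the apolipoprotein L family, with means of 0.0408 in skin and 717 in blood (log2 -13.91, and -15.40 without M3), and the erythroid ubiquitin ligase Trim10 with 0.0491 and 798 (log2 -13.85, and -15.06 without M3).

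Most calls had the same direction in the transgenic mice, though sizes differed. Of 5958 genes called in wild-type skin and tested in the transgenic animals, 5328 were called in their skin and 21 in their blood. Of 3814 called in wild-type blood, 3413 were called in their blood and 6 in their skin. A test of the difference itself, over 16655 genes, called 175 with a larger skin minus blood value in the transgenic mice (1.05%) and 50 with a smaller one (0.3%), with 2554 at an unadjusted p under 0.05. Of the 175, 105 were genes called in skin of the wild type, a call given to 39.8% of all genes tested there. Both calls rest on the same wild-type libraries, so this overlap is a description only. Krt5 was at 4.75 in the wild type and 9.41 in the transgenic mice, a difference of 4.65, Krt10 at 3.56 and 9.61, and Hrnr, of the cornified envelope, differed by 7.98. The defensin Defb6 differed by 4.95. For Krt5 and Krt10 the plain CPM of the genotypes overlapped in skin, at 2636 to 3320 against 2826 to 4813 for Krt5 and 897 to 4612 against 928 to 5061 for Krt10, and did not overlap in blood, as given above. Crym differed by -6.77. Leaving out a transgenic or wild-type animal moved the total of 225 calls between 78 (without M4) and 875 (without V2), and DESeq2 called 982.

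No gene was called as different between females and males in its tissue difference. The test of tissue by sex, with 2 animals of each sex, called 0 of 15094 genes in edgeR, with 1038 at an unadjusted p under 0.05, and DESeq2 called 59. Without M3 or M4, which leaves 1 female, edgeR called 22 and 53 on the spread of the remaining animals.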

How the data were processed

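Reads of stranded mRNA libraries of skin and whole blood were counted per gene by the authors, and the deposited values are raw counts. Per the submitters' processing notes, STAR 2.5.2, HTSeq 0.6.1, DESeq2 and the mm10 genome were used; for the annotation and the strand setting of the counting, no source used here states them. Total counts ran from 11197265 to 40678246 per library, so low genes in blood are the least precise.

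The 4 skin and 4 blood libraries of the wild-type mice were compared with edgeR 4.0.16 in R 4.3.3 (TMM factors, filterByExpr, quasi-likelihood test, animal as a block, Benjamini-Hochberg adjusted p under 0.05 over all genes tested). The test was also run on simulated data with known changes, where it called most of the large ones and few of the small ones. The simulated tissues had the same mean profile except for a small set of genes, changed as often up as down. The haemoglobin excess of blood and differences between animals were not part of it. It therefore cannot judge the scaling on which the split of calls rests. The animal tag pairs the libraries by label. Deviations of the same animal's tissues correlated at 0.0184 to 0.0685, and those of different animals at -0.087 to 0.0313. These ranges overlap, so the pairing rests on the label. Every pair of replicates differed by more than sampling noise. Intervals of count ratios are exact binomial ones at 95% and cover counting error only. Gene positions are those of GENCODE on mm10, and promoters those of RefSeq on GRCm38.p6, cut to end before the gene's start in both.

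Named genes were the highest by level or fold, up to 4 called members of each list in each direction, called exceptions, members of the paralog and ligand pairs, and genes leading the genotype term. Krt31, Mpo and Elane were named after their values were seen. The comparison, the 46 lists (868 distinct genes, 832 list entries tested) and the pairs were chosen with earlier results of these data known. Alternatives were other scalings and filters, DESeq2 1.42.0, limma-voom (limma 3.58.1), no block, all 16 tissue libraries, and each animal left out. Some genes and pairs are not reported here. The 6 keratinocyte cultures were not analysed here.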

Additional observations from a re-analysis of the deposited data

Results flagged for a closer look

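Dixon's criterion at the 95% level was applied to 307 groups of 4 libraries. These were the genes named above with a mean of at least 1 scaled CPM, and a few library measures such as total counts and haemoglobin share. In 20 groups, all of genes, a library stood apart from the other 3, where chance gives about 1 in 20. In skin, M3 was the high library for Slc4a1 (13.6), Slc25a37 (92.1), S100a9 (6.75), Cebpb (18.7), Crym (288) and Krt84 (58.0). M2 was high for Alas1 (38.5) and M4 for Ube2l6 (7.38). In blood, M2 was high for the platelet genes Itga2b (1580), Nrgn (2551) and Pecam1 (270.4) and for Prdx2 (2379), and low for Cxcr4 (53.3). These are scaled CPM, and in blood the ratio of scaled to plain CPM was largest in M2 (4.06) and smallest in M1 (1.66). Summed over the platelet list, plain CPM in blood was 6295, 4035, 3985 and 3103 in M1 to M4, so M1 was the highest on that scale. Blood of M4 was high for C1qa (71.8), C1qb (76.7), C1qc (73.3), Mcpt4 (10.4), Ednrb (32.2) and Car3 (21.5), and blood of M3 for Ldha (120.2).

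The skin minus blood difference was called as different between genotypes for 22 of the 163 genes. The transgenic minus wild-type log2 was 4.65 for Krt5, 4.98 for Krt14, 5.0 for Krt15 and 4.41 for Col17a1 of the basal layer. It was 6.06 for Krt10, 6.83 for Krt1, 6.62 for Krt2, 7.98 for Hrnr, 6.29 for Krtdap, 5.48 for Elovl4, 3.49 for Krt79 and 2.34 for Dsp. For muscle it was 3.35 for Acta1 and 3.15 for Des. T cell genes differed by 1.92 (Lck), 3.91 (Ccr7) and 1.93 (Trbc2), and the others were Ackr4 (8.77), Defb6 (4.95), Vgll3 (4.00), Notch1 (-1.61) and Crym (-6.77). As plain CPM, the genotypes overlapped in skin and not in blood for Krt5, Krt14, Krt10, Krt1, Krt2, Hrnr and Acta1. Acta1 in skin was 2728 to 8664 in the wild type and 5220 to 8400 in the transgenic mice. In blood it was 5.4 to 9.15 and 0.819 to 1.5. Vgll3 went the other way, with no overlap in skin and an overlap in blood. The other genes of this paragraph were not compared in plain CPM here. The cause of these genotype differences was not tested.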

How the results depend on the processing

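The scale decided most. Per library total, with no scaling factors, 13280 genes were called in skin and 803 in blood, and log2 values turned above 0 for Acsl1 (1.35), Ccr2 (0.11), Cd74 (0.97), Crlf2 (0.96), Esam (0.52), Fcgr3 (1.25), H2-Aa (1.14), H2-Ab1 (1.57), H2-Eb1 (1.33), Itga6 (0.06), Krt36 (2.29), Krt84 (0.74), Mbp (1.24), Mylk (1.14), Nfatc1 (1.18), Notch2 (1.48), Pecam1 (0.23), Rac1 (1.35), Rplp0 (1.65), Tgfb1 (0.13), Tgfbr1 (2.35) and Ugcg (1.98). So did the medians of the lists for haem and iron (2.07), gamma-delta T cells (1.54), dendritic cells (1.74), MHC class II (0.98), receptors (0.11), interferon-stimulated genes (0.55), ribosomal proteins (2.68) and antioxidants (2.5). A minimum fold of 2 left 3891 calls in skin and 2272 in blood.

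Under the other settings 143 of the 163 named genes kept their direction and call throughout. Uncalled genes changed sign: Aqp1, at -0.22 without M1 and up to 0.25 without M3, Krt36, at 0.68 without M2, 0.18 without M4 and down to -2.19 without M3, and Krt84 under limma-voom (0.55). Krt84 also gained a call in blood without M3 (log2 -3.84, edgeR adjusted p = 0.0264). Without the replicate block, which pairs tissues by animal, 6204 and 3994 genes were called in skin and blood, 221 by genotype (178 larger, 43 smaller) and 0 by sex, and Krt84 was at 0.27.

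With an animal left out, calls ran from 4915 to 5398 in skin and 3223 to 3944 in blood, from 78 to 875 by genotype (70 to 592 larger, 4 to 283 smaller in the transgenic mice) and from 0 to 53 by sex. DESeq2 called 982 genes by genotype (626 larger, 356 smaller) and 59 by sex, and with no low-count filter 257 were called by sex. The causes were not tested. Blood held fewer counts outside haemoglobin, so genes with few counts there have folds that rest on 1 or 2 libraries.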
